A study of Mus musculus with 28 samples.

Results

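The 10 chemokine genes described here are Cxcl1, Cxcl9, Cxcl10, Cxcl12, Cxcl16, Ccl2, Ccl3, Ccl4, Ccl5 and Ccl7. They were chosen by symbol from the 44674 genes of the bulk table of mouse ovary, and each was also followed through 4 single-cell libraries. The bulk data were 24 libraries of polyadenylated RNA, each from a pair of ovaries, with 6 libraries in each of 4 groups. The groups were wild-type females given sham treatment (non-irradiated), wild-type females exposed to 0.5 Gy of ionizing radiation (IR), and Chek2-/- females with the same sham or IR treatment, all collected at 6 h. The study irradiated females of 7 to 9 days. Wild-type mice were C57BL/6J, and Chek2-/- mice carried the Chek2tm1b(EUCOMM)Hmgu allele, which is deleted in all tissues. Each of the 4 single-cell libraries held cells from the pooled ovaries of 4 females of 7 days, so a single-cell comparison set 1 library against another and had no replicate check. Nothing in the labels says whether same-group bulk libraries came from separate litters, and p-values measure the spread between these libraries.

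Chemokines are small secreted proteins that draw leukocytes along a gradient by way of G protein-coupled receptors. CC chemokines such as Ccl2 and Ccl7 act mainly on monocytes through Ccr2, while Ccl3, Ccl4 and Ccl5 attract monocytes and T cells. Among the CXC chemokines, Cxcl1 attracts neutrophils through Cxcr2, Cxcl9 and Cxcl10 are interferon-induced ligands of Cxcr3, Cxcl12 is a stromal ligand of Cxcr4 that also binds Ackr3, and Cxcl16 is made as a membrane protein and binds Cxcr6. In the ovary, chemokines are known from ovulation, when leukocytes enter the follicle wall.

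The labelled tissue was checked against its markers. Oocyte markers summed to between 1058 and 2499 counts in each 1000000 (CPM) and granulosa cell markers to between 802 and 1932 CPM in the 24 libraries. The targeted gene Chek2 measured 22.4 ± 1.66 CPM without and 21.1 ± 1.98 CPM with IR in wild-type ovaries, against 3.75 ± 0.545 and 3.96 ± 0.526 CPM in Chek2-/- ovaries (mean ± SD, n = 6). Some libraries stood apart. In both Chek2-/- libraries numbered 6 the oocyte markers summed to 1058 and 1188 CPM, below the 1905 to 2499 CPM of all others, and granulosa markers were also lowest there. Irradiated wild-type replicate 3 and irradiated Chek2-/- replicate 2 held neutrophil markers at 863 and 935 CPM, against 5.73 to 21.4 CPM elsewhere. Erythroid markers summed to 10445 CPM in non-irradiated Chek2-/- replicate 5 and to 7047 CPM in irradiated Chek2-/- replicate 2, against 198 to 926 CPM in all others.

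Depth set the precision. Bulk libraries held between 17825167 and 32605747 rounded counts, so 3 counts in a library equalled between 0.0931 and 0.168 CPM. All 10 chemokines had at least 1 count in every library and passed the filter on low counts (at least 10 counts over the 24 libraries). Levels were also divided by kilobases of exon. The exons of all isoforms were merged, to 8176 bases for Cxcl12, which can exceed the length of a transcript. By this measure Ccl2 and Cxcl16 had the highest means in non-irradiated wild-type ovaries, at 11.6 and 9.53 CPM per kilobase. Ccl7 at 5.25, Cxcl10 at 4.96, Cxcl12 at 4.49 and Cxcl1 at 2.54 CPM per kilobase followed, then Ccl3 at 1.46 and Ccl4 at 1.03. Ccl5 at 0.324 and Cxcl9 at 0.0478 CPM per kilobase were the lowest here and in each of the other 3 groups. The order follows means, some of which lay well above the median. In non-irradiated wild-type ovaries mean and median were 13.2 and 7.16 CPM for Ccl2 and 4.20 and 2.24 CPM for Ccl7. For Cxcl10 they were 11.2 and 3.63 CPM, and for Cxcl12 36.7 and 36.7 CPM. Libraries of neighbours in this order overlapped, except that every library had Ccl5 above all values of Cxcl9 per kilobase in non-irradiated wild-type and in non-irradiated Chek2-/- ovaries. Cxcl9 was measured from as few as 1 count and at most 27 counts in a library, Ccl5 from 1 to 81 and Ccl4 from 1 to 132.

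The first comparison asked whether IR changed chemokine transcripts in wild-type ovaries. None of the 10 chemokines passed the test, which asked for a 2-fold or larger change together with an adjusted p no higher than 0.05 (quasi-likelihood test of edgeR, Benjamini-Hochberg over the 26790 genes tested). In the same comparison 288 genes passed, which is 1.08% of those tested, and 646 genes (2.41%) did without the minimum fold. None of the 10 had an unadjusted p under 0.05, and DESeq2 and limma-voom also called none. The median log2 fold change of the 10 chemokines was -0.03, against 0.00 over all genes tested, and 4 of 10 were positive.

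Cxcl10 (ENSMUSG00000034855), the interferon-induced Cxcr3 ligand, showed how wide the spread was. Its non-irradiated wild-type libraries ranged from 1.37 CPM to 44.5 CPM with a median of 3.63 CPM, and its irradiated libraries from 4.30 to 21.8 CPM with a median of 6.85 CPM. The irradiated libraries lay within the range of the non-irradiated ones, and the highest value of all 12 belonged to a non-irradiated library, replicate 5. The log2 fold change was -0.32 (SE 0.76, 95% interval -1.89 to 1.25, adjusted p by edgeR 0.958). Without that library it was 1.01, again not past the threshold (the lowest adjusted p with any 1 library left out was 0.674).

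Cxcl9 (ENSMUSG00000029417), the other Cxcr3 ligand, had the smallest adjusted p. It measured 0.144 ± 0.0948 CPM without and 0.280 ± 0.197 CPM with IR, and the groups overlapped. The log2 fold change was 0.88 (SE 0.53, adjusted p by edgeR 0.599). Ccl2, the monocyte attractant, ranged from 5.55 to 28.8 CPM (median 7.16) without and from 5.66 to 14.7 CPM (median 7.16) with IR. Its log2 fold change was -0.57 (SE 0.55, adjusted p = 0.827), and the median was the same in both groups. Cxcl12 and Cxcl16, the stromal and the membrane-bound chemokine, gave the tightest limits. Cxcl12 was at 36.7 ± 4.20 CPM without and 36.7 ± 5.67 CPM with IR, and the 95% interval of its log2 fold change was -0.25 to 0.25. For Cxcl16 that interval was -0.44 to 0.41. The remaining log2 fold changes were -0.04 for Cxcl1, 0.20 for Ccl3, -0.18 for Ccl4, 0.63 for Ccl5 and -0.39 for Ccl7, each with overlapping groups. In bulk tissue fewer cells of a type and less RNA per cell cannot be told apart. Macrophage markers, which could accompany the CC chemokines, summed to a median of 31.8 CPM without and 42.9 CPM with IR in wild-type ovaries, and none of the 8 passed the test.

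**Figure D1:**
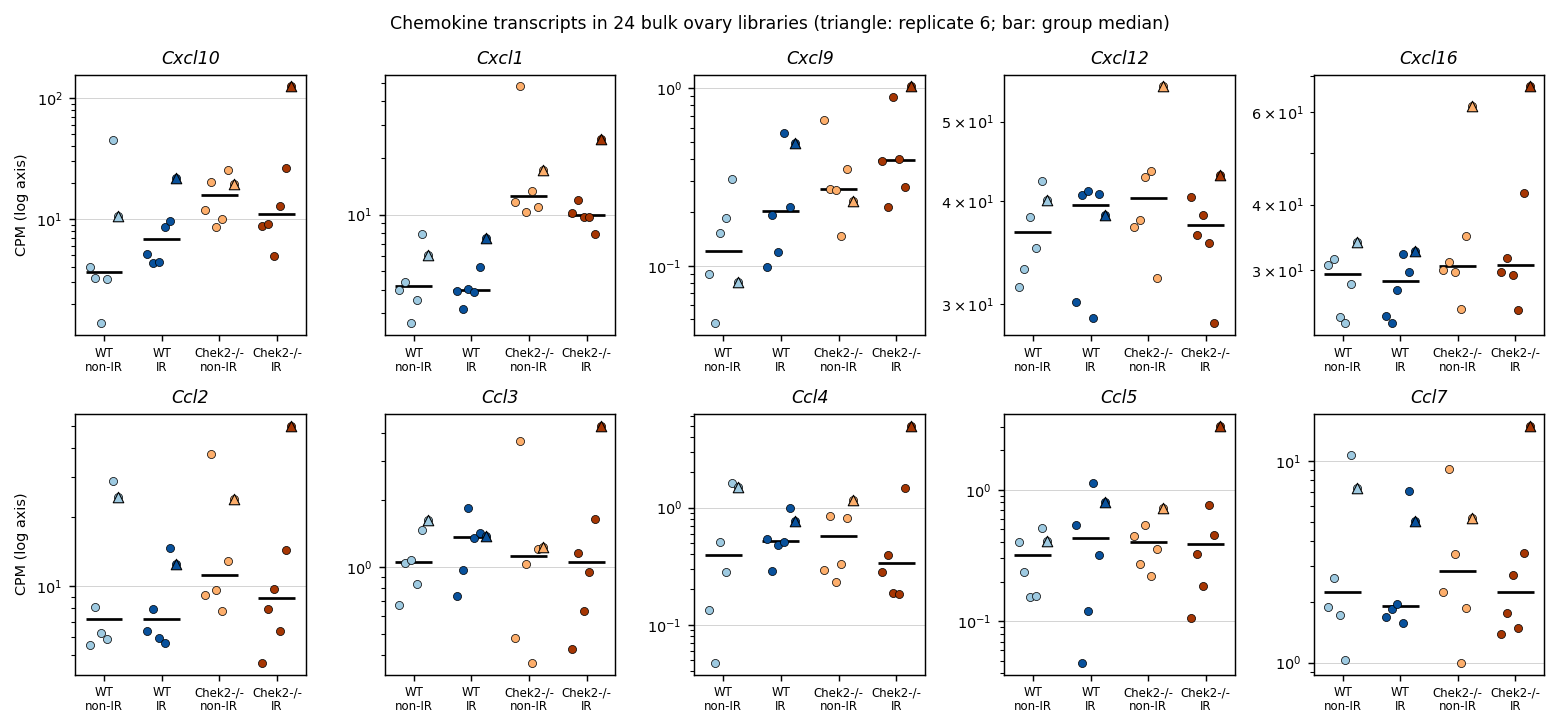
CPM (log axis) of the 10 chemokines in each of the 24 bulk libraries, with 1 point per library and a bar at the median of each group of 6. Irradiated and non-irradiated libraries of the same genotype overlap for all 10 genes, and for Cxcl1 every Chek2-/- library lies above every wild-type library with the same treatment.

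In Chek2-/- ovaries none of the 10 chemokines passed the test after IR either, in a comparison where 1 gene of 26790 did (0.00373%). All 10 had an adjusted p of 1.00, and none had an unadjusted p under 0.05. Cxcl10 was at 15.9 ± 6.69 CPM without and 31.1 ± 46.4 CPM with IR. The large SD came from replicate 6 of the irradiated group at 125 CPM, while the other 5 irradiated libraries lay between 4.91 and 26.4 CPM. Its log2 fold change was 0.97 (SE 0.74), and -0.29 when both Chek2-/- libraries numbered 6 were left out. Ccl4, whose log2 fold change was 1.02 (SE 0.73), likewise rested on that replicate. It was at 5.00 CPM there and between 0.182 and 1.46 CPM in the other 5 irradiated libraries, and its log2 fold change was 0.00 without the libraries numbered 6. Ccl3 went to -0.49 and Ccl7 to -0.70 when those libraries were left out, from 0.19 and 0.17 with them. The log2 fold change was -0.58 (SE 0.35) for Cxcl1 and -0.16 (SE 0.12) for Cxcl12.

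The interaction, the response to IR of wild-type ovaries minus that of Chek2-/- ovaries, was past the threshold for none of the 10, against 167 of 26790 genes (0.623%), or 277 (1.03%) without the minimum fold. Its largest sizes were -1.29 (SE 1.06) for Cxcl10 and -1.21 (SE 1.06) for Ccl4 on the log2 scale, with edgeR adjusted p of 0.827 and 0.845. Both took the opposite sign, at 0.06 and 0.12, with irradiated Chek2-/- replicate 6 left out, and Cxcl10 also did, at 0.04, with non-irradiated wild-type replicate 5 left out. A p past this threshold in neither genotype does not show that the chemokines respond alike, and the 95% interval for Cxcl10 ran from -3.47 to 0.90.

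**Figure D2:**
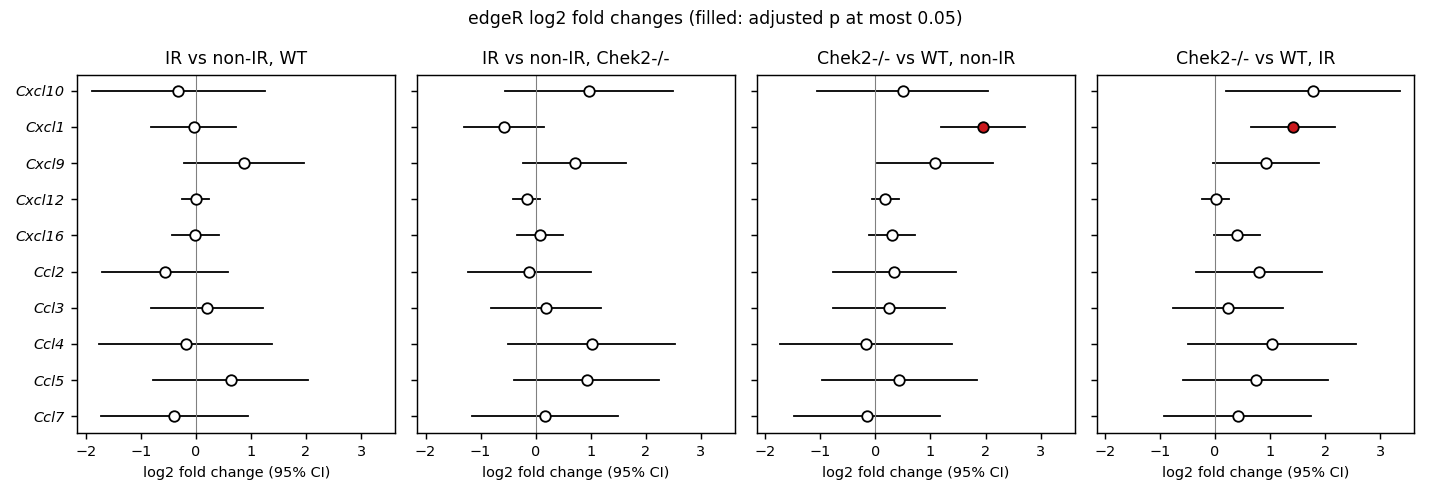
Log2 fold changes of the 10 chemokines in the bulk comparisons, with 95% intervals from the edgeR fit. Only the Cxcl1 differences between genotypes, 1.96 without and 1.41 with IR, are past the threshold, and the intervals for Cxcl12 and Cxcl16 are the narrowest.

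The genotypes were then compared without IR. Cxcl1 (ENSMUSG00000029380), the neutrophil attractant, was higher in Chek2-/- ovaries, and it was the 1 chemokine of 10 past the threshold. In this comparison 211 of 26790 genes were called (0.788%), or 1430 genes (5.34%) without the minimum fold. Non-irradiated wild-type libraries ranged from 2.64 to 7.90 CPM (median 4.20) and non-irradiated Chek2-/- libraries from 10.3 to 48.0 CPM (median 12.5). No library of one group reached the other, which was so in this direction for 1.68% of all genes tested. The log2 fold change was 1.96 (SE 0.37, adjusted p by edgeR 0.00442, higher in 6 of 6 libraries). Replicate 2 of the non-irradiated Chek2-/- group, at 48.0 CPM, raised the estimate, and without it the log2 fold change was 1.42 (adjusted p = 0.0107). The Chek2-/- libraries numbered 6 did not carry it, since the value without both was 1.98 (adjusted p = 0.0029), and it was 2.07 (adjusted p = 0.00287) without replicate 5, the library high in erythroid markers. No list of cell markers had a member past the threshold in this comparison. Without the minimum fold, which 5.34% of genes passed, 3 of 7 fibroblast markers (Col1a1, Col1a2 and Mfap4) and 2 of 6 pericyte markers (Notch3 and Cspg4) fell, and 1 of 6 oviduct and uterine epithelium markers (Ovgp1) rose. All 6 erythroid markers were positive with an unadjusted p under 0.05 (median log2 fold change 2.32, lowest adjusted p by edgeR 0.0598). The part of these cells in the Cxcl1 difference was not tested.

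The same genotypes were compared after IR as a further contrast, chosen after the data had been seen, in which 2.39% of genes were called. Irradiated wild-type libraries held Cxcl1 at 3.14 to 7.54 CPM (median 3.99) and irradiated Chek2-/- libraries at 7.89 to 25.3 CPM (median 9.95). Again no library of one group reached the other, which was so in this direction for 2.54% of genes. The log2 fold change was 1.41 (SE 0.37, adjusted p by edgeR 0.015). It fell under the threshold without irradiated Chek2-/- replicate 6, at 1.07 (adjusted p = 0.0554), and was 1.07 (adjusted p = 0.0467) without both libraries numbered 6. The difference between the genotypes with and without IR is the interaction above, which for Cxcl1 was 0.54 (SE 0.51, adjusted p = 0.871). In this contrast 2 of 7 neutrophil, 2 of 4 B cell (Cd79a and Cd79b) and 1 of 8 oocyte markers rose, and 2 of 6 perivascular smooth muscle markers (Actg2 and Tagln), 1 of 7 T and NK cell markers and 1 of 6 oviduct and uterine epithelium markers fell. The other 8 marker lists had no member past the threshold. The sums of the leukocyte lists stood out in single libraries. In irradiated Chek2-/- replicate 2 the neutrophil markers summed to 935 CPM. The B cell markers summed there to 12.8 CPM, against 4.35 to 5.62 CPM in the rest of that group. T and NK cell markers summed to 7.53 CPM in irradiated wild-type replicate 3, against 0.564 to 1.28 CPM in the rest of that group. Without the minimum fold, which 9.84% of genes passed, a further 3 of 8 oocyte markers rose. At that threshold 3 of 7 fibroblast, 1 of 6 pericyte markers and the smooth muscle marker Acta2 fell. The 6 erythroid markers were all positive (median log2 fold change 2.19, lowest adjusted p by edgeR 0.104). Without irradiated Chek2-/- replicate 2, which was high in erythroid and neutrophil markers, the Cxcl1 difference was 1.42 (adjusted p = 0.0244). The 2 libraries with neutrophil transcripts held Cxcl1 at 4.04 and 11.9 CPM, inside the range of their groups. The value of 11.9 CPM, in irradiated Chek2-/- replicate 2, was the highest of its group after replicate 6 at 25.3 CPM. The part of any of these cells in the difference was not tested.

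The position of Cxcl1 bears on this comparison. Cxcl1 lies on chromosome 5 at 90891241 to 90893115 (GRCm38, plus strand), 19.9 Mb from Chek2. Cxcl9 (92321347 to 92328079, minus strand) and Cxcl10 (92346638 to 92348889, minus strand) lie 18.5 Mb from Chek2, also on that chromosome. Nnt, a mitochondrial enzyme whose gene is partly deleted in C57BL/6J mice, measured 32.4 ± 4.22 CPM in wild-type and 66.8 ± 8.97 CPM in Chek2-/- ovaries without IR, which differ by 1.04 on the log2 scale (SE 0.09, adjusted p by edgeR 1.05e-07). The loss of Chek2, the chromosome segment that came with the allele and the strain background cannot be told apart for Cxcl1. No other chemokine was past the threshold. Cxcl9 and Cxcl10 had log2 fold changes of 1.09 (SE 0.51, adjusted p = 0.217) and 0.49 (SE 0.75, adjusted p = 0.773) without IR, and 0.92 (adjusted p = 0.238) and 1.78 (SE 0.76, adjusted p = 0.153) with IR, all with overlapping groups. The Cxcl10 values depended on single libraries. Without IR the log2 fold change was 1.82 (adjusted p = 0.126) with wild-type replicate 5 left out, and with IR it was 0.45 (adjusted p = 0.754) with Chek2-/- replicate 6 left out. The remaining 7 chemokines had log2 fold changes between -0.17 and 0.44 without IR. With IR all 10 chemokines had a positive log2 fold change, with a median of 0.77, against 0.01 over all genes tested. Group medians did not all go that way. In irradiated Chek2-/- against irradiated wild-type ovaries they were lower for Cxcl12 (37.5 and 39.6 CPM) and Ccl3 (1.05 and 1.36 CPM). They were also lower for Ccl4 (0.339 and 0.523 CPM) and Ccl5 (0.388 and 0.431 CPM), and higher for the other chemokines. Irradiated Chek2-/- replicate 6 was the highest library of its group for all 10.

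Promoter sequences are shown for Cxcl10 and Cxcl1, the members whose levels varied most among those above 1 CPM in every library, and for Cxcl9, the neighbour of Cxcl10. RefSeq windows of 250 bases before the gene start (GRCm38.p6) were given for 5 of the 10 genes. Capitals mark matches to the interferon-stimulated response element in the form GAAANNGAA, to the NF-kB consensus or to the p53 half-site consensus, each searched on both strands. The window of Cxcl10 is at chr5:92348890-92349139 (minus strand), that of Cxcl1 at chr5:90890995-90891244 (plus strand) and that of Cxcl9 at chr5:92328080-92328329 (minus strand).
Cxcl10: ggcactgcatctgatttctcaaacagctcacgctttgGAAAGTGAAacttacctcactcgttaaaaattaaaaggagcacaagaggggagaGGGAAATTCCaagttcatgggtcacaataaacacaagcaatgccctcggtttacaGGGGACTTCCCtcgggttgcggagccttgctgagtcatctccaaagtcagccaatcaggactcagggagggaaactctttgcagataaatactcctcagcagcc
Cxcl1: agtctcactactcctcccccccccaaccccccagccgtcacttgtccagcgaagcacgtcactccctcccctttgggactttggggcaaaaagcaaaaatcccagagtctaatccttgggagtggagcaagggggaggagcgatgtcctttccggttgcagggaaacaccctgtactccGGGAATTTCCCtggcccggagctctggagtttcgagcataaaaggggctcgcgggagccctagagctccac
Cxcl9: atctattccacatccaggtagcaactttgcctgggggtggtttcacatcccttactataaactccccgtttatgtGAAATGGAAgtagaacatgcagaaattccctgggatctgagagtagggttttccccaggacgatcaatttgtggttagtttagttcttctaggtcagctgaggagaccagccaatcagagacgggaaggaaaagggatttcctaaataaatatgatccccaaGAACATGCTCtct
In Cxcl10 the first capitals are the interferon-type match, at 213 to 205 bases before the start, and the later ones NF-kB matches at 159 to 150 and, overlapping one another, at 104 to 94 bases. In Cxcl1 a pair of overlapping NF-kB matches lies at 71 to 61 bases. In Cxcl9 the interferon-type match lies at 175 to 167 bases and a p53 half-site match at 13 to 4 bases before the start. Ccl3 held an interferon-type match on the other strand at 39 to 31 bases and Cxcl12 held no match. Over all 32851 promoters of the table, 7.13% held the interferon-type letters, 7.25% the NF-kB consensus, 7.13% the p53 half-site consensus and 7.02% the GAS element TTCNNNGAA, which none of the 5 held. A match describes letters only and is not a bound site.

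Most chemokines spread widely over the libraries and varied together. From the lowest to the highest of the 24 libraries Ccl4 spanned 105-fold, Cxcl10 90.8-fold, Ccl5 63.5-fold, Cxcl9 21.6-fold, Cxcl1 18.1-fold, Ccl7 15.0-fold, Ccl3 11.7-fold and Ccl2 10.8-fold. Cxcl16 spanned 2.81-fold and Cxcl12 1.94-fold. The low ends for Ccl4, Ccl5 and Cxcl9 rest on 1 count each. Irradiated Chek2-/- replicate 6 was the highest of its group for all 10 chemokines and the highest of all 24 libraries for 8 of them. Non-irradiated wild-type replicate 5 was the highest of its group for 8 of 10. In non-irradiated Chek2-/- ovaries replicates 2 and 6 were each the highest for 4, and in irradiated wild-type ovaries 4 libraries shared the lead, none with more than 3. Counting the 2 highest libraries of each group, replicates 5 and 6 were among them for 9 and 9 chemokines in non-irradiated and 7 and 8 in irradiated wild-type ovaries, and for 3 and 8 in non-irradiated and 6 and 10 in irradiated Chek2-/- ovaries. The labels do not say what libraries with the same number share.

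Covariation was measured by correlating the deviations of log2(CPM + 0.5) from the group mean over 24 libraries, for 45 pairs, with p from 100000 permutations within groups. All 45 Pearson coefficients were positive, 24 had a Benjamini-Hochberg adjusted permutation p of at most 0.05, and 20 of these were also past it for Spearman's rho. Ccl2 and Ccl7, which lie next to each other on chromosome 11 (82035571 to 82037453 and 82045712 to 82047525, both on the plus strand), followed each other most closely. Their r was 0.95 (permutation p = 1e-05, the smallest these permutations can give, adjusted 0.000225) and rho was 0.89 (adjusted permutation p = 0.00045). It was 0.92 without the 2 libraries farthest from the median of Ccl2, and between 0.89 and 0.99 within each of the 4 groups. Ccl2 and Ccl4 had r = 0.87 (adjusted permutation p = 0.000225), with rho = 0.73 and r = 0.78 without the 2 outermost libraries. Cxcl10 and Ccl4 had r = 0.84 (adjusted permutation p = 0.000562), with rho = 0.75 and r = 0.72 without the 2 outermost. Cxcl1 and Ccl2 had r = 0.79 (adjusted permutation p = 0.000562), with rho = 0.59 and r = 0.69 without them. With both Chek2-/- libraries numbered 6 left out these coefficients were 0.94, 0.81, 0.78 and 0.75. Cxcl12 and Cxcl9 took little part. The highest r of Cxcl12 with another chemokine was 0.40 (with Ccl7, adjusted permutation p = 0.102), and that of Cxcl9 was 0.51 (with Ccl5, adjusted permutation p = 0.0725). Some pairs rested on few libraries, such as Ccl2 and Ccl5, whose r of 0.53 was 0.21 without the 2 outermost.

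**Figure D3:**
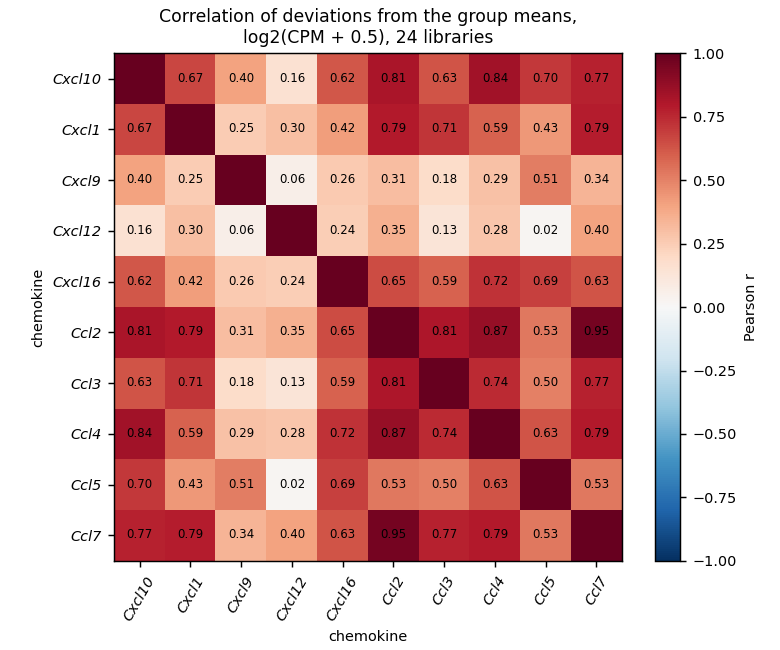
Pearson correlations between the 10 chemokines over the 24 bulk libraries, computed on deviations of log2(CPM + 0.5) from the mean of each group. Ccl2, Ccl3, Ccl4, Ccl7, Cxcl10 and Cxcl1 correlate with one another at 0.59 (Cxcl1 and Ccl4) to 0.95 (Ccl2 and Ccl7), and the rows of Cxcl12 and Cxcl9 are pale.

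Cell markers varied with some of them. Of 40 relations between the chemokines and the summed markers of macrophages, epithelium, neutrophils and oocytes, 1 had an adjusted permutation p of at most 0.05 by Pearson's r, Cxcl16 with the epithelial sum (r = 0.75, adjusted permutation p = 0.0064), although rho for it was 0.58 (adjusted permutation p = 0.0726). This r was 0.70 without the 2 outermost libraries and 0.59 without the Chek2-/- libraries numbered 6. Within single groups it ran from -0.31 to 0.93. Macrophage markers and Ccl4 had r = 0.51 (adjusted permutation p = 0.109) and rho = 0.61 (adjusted permutation p = 0.0453). With Ccl3 these markers had r = 0.40 (adjusted permutation p = 0.196) and rho = 0.68 (adjusted permutation p = 0.0168). With Cxcl16 they had r = 0.56 (adjusted permutation p = 0.109) and rho = 0.72 (adjusted permutation p = 0.0136). In irradiated Chek2-/- replicate 6, where the chemokines were highest, the macrophage sum was 45.1 CPM and the epithelial sum 585 CPM. Those of irradiated Chek2-/- replicate 2, where they were not, were 68.0 and 282 CPM. Pericyte markers summed to 534 CPM in irradiated and 629 CPM in non-irradiated Chek2-/- replicate 6, the 2 highest of the 24 libraries. The part of these cells in the covariation was not tested.

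The genes whose pattern was most like that of a chemokine were listed by the Pearson r of log2(CPM + 0.5) over all 24 libraries, as a description. For Cxcl10 they were Cd274 (r = 0.93), which encodes the checkpoint ligand PD-L1, Rab10 (0.89) and Ifi205 (0.88), an interferon-inducible gene. For Cxcl1 they were Gadd45b (0.93), a stress-response gene, the hyaluronan synthase gene Has1 (0.90) and Nr4a2 (0.90), an immediate early nuclear receptor. Ccl2 and Ccl7 were most like each other (0.93). Next for Ccl7 were Ptx3 (0.84), a secreted pattern recognition protein, and Il6st (0.84), the shared receptor chain of interleukin 6 family cytokines. Next for Ccl2 were Gm12840 (0.87) and Slmapos2 (0.86). For Ccl4 they were Il6st (0.88) and the interferon-induced GTPases Gbp6 (0.85) and Gbp5 (0.84). For Ccl5 they were Ddx58 (0.82), the RNA sensor RIG-I, Phf11d (0.82) and Gm20559 (0.80). Ccl3 was most like Rras (0.76), Cxcl2 (0.76) and Ccl7 (0.75). Cxcl16 was most like Pogk (0.90), Sod2 (0.89), the mitochondrial superoxide dismutase, and Pdlim5 (0.89). Cxcl12 was most like Col14a1 (0.81), a fibroblast collagen, Syt15 (0.80) and Acot4 (0.78). Cxcl9 was below the level set for this list.

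The single-cell libraries placed these transcripts in cells. Of 40594 barcodes, 36524 were kept as cells, with library medians between 13908 and 17135 UMIs (unique molecular identifiers, which count captured molecules). Between 16 and 36 barcodes were shared by any 2 libraries. Clusters were made without the chemokines, their receptors and the interferon and NF-kB genes, and were named from marker lists with limits set after the clusters had been seen. They gave 18598 fibroblast-like, 13102 granulosa-like, 1265 perivascular smooth muscle-like, 1098 epithelial-like, 767 endothelial-like, 660 pericyte-like, 578 oocyte-like and 138 macrophage-like cells. A cluster of 155 cells led by Cpa3, with Cd52, Lyz2 and Il1rl1, and a cluster of 163 cells led by Hba-a1 stayed unnamed. Levels are given as UMI CPM, the UMIs of a gene in each 1000000 UMIs of a class, and their 95% intervals (exact Poisson, and exact binomial for ratios) cover counting error only. UMIs do not scale with transcript length.

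Ccl2, Ccl3, Ccl4 and Ccl7 were concentrated in the small macrophage-like cluster, which makes up 0.378% of cells. Over the 4 libraries its level was 538 UMI CPM for Ccl4 (interval 505 to 573), 375 for Ccl3 (348 to 404), 310 for Ccl2 (285 to 337) and 279 for Ccl7 (255 to 304). It held 76.9% of all Ccl7 UMIs, 70.3% of those of Ccl4, 66.3% of Ccl3 and 36.8% of Ccl2. In the cluster led by Cpa3 the level over the 4 libraries was 127 for Ccl4, 122 for Ccl3, 113 for Ccl2 and 30.3 for Ccl7. These levels differed between libraries and rested on few cells. In the non-irradiated wild-type library the cluster was at 113 for Ccl4 (89.6 to 140) and 155 for Ccl3 (128 to 186), which overlapped the macrophage-like cells at 120 (87.2 to 161) and 194 (151 to 244). In the other 3 libraries the macrophage-like cells were higher for both, with intervals apart for Ccl3, and for Ccl4 apart in both irradiated libraries. All 50 Ccl7 UMIs of the cluster came from the irradiated wild-type library, 46 of them in 1 cell, and 85 of the 101 Ccl4 UMIs of that library were also in 1 cell. Ccl2 had further sources. Pericyte-like cells were at 30.3 (26.1 to 34.9) and epithelial-like cells at 11.2 (9.98 to 12.5) UMI CPM, while granulosa- and fibroblast-like cells were at 0.503 and 0.371. The single libraries ran from 8.88 to 40.2 in pericyte-like cells. Of the 318 Ccl2 UMIs of epithelial-like cells 254 came from the irradiated wild-type library, and the other 3 libraries were at 0.750 to 4.27. Adgre1 and C1qa, which define macrophages, were at 380 and 2967 UMI CPM in the macrophage-like cluster, and at 9.68 and 0.605 in the cluster led by Cpa3. Other genes of the macrophage list did not separate the clusters in this way. Tyrobp and Fcer1g were among the leading genes of the cluster led by Cpa3, where 25% of that list met the marker limits.

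Ccl5 had a different place from the other CC chemokines. It was at 137 UMI CPM (120 to 156) in the cluster led by Cpa3, which held 60.5% of its 375 UMIs. There the single libraries ran from 37.9 to 313. The macrophage-like cells were at 10.4 (6.26 to 16.2), with 11 of their 19 UMIs in 1 cell. The cluster led by Cpa3 also held Nkg7, of cytotoxic lymphocytes, at 152 and Cd3e, of T cells, at 46.0 UMI CPM, both at 0 UMIs in the macrophage-like cells, so it mixes several leukocytes.

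Cxcl12 and Cxcl16 were mostly transcripts of the stroma. Cxcl12 was at 196 UMI CPM (189 to 203) in perivascular smooth muscle-like, 160 (158 to 161) in fibroblast-like and 94.8 (89.9 to 99.8) in endothelial-like cells, and fibroblast-like cells held 86.1% of its 49931 UMIs. Granulosa- and oocyte-like cells were lowest at 5.04 and 4.22. Cxcl16 was highest in macrophage-like cells at 132 (116 to 150) UMI CPM. Fibroblast-like cells followed at 29.7 (29.0 to 30.3) and, being numerous, held 85.9% of its 9301 UMIs. The 2 transcripts least variable between bulk libraries had most of their UMIs in the class with the most cells, and a relation between these was not tested.

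Cxcl10 and Cxcl1 came from several classes. Cxcl10 was at 96.6 UMI CPM (93.0 to 100) in epithelial-like, 81.4 (77.0 to 86.1) in endothelial-like and 62.8 (61.9 to 63.7) in granulosa-like cells. Macrophage-like cells were at 77.1, but 64 of their 141 UMIs were in 1 cell, and they are given no place in this order. The order differed between libraries. In the irradiated wild-type library epithelial-like cells led at 228 and endothelial-like cells, at 76.6, were lower than granulosa-like cells at 139. In the non-irradiated wild-type library endothelial-like cells led at 54.5, above granulosa-like cells at 16.0 and epithelial-like cells at 11.9. Granulosa-like cells held 73.5% of its 26526 UMIs, and most of these lay in 1 of their 4 clusters (cluster 7, led by Cst12, at 187 UMI CPM), singled out after its values were seen, while the other 3 were at 7.62 to 27.4. Cxcl10 was lowest in perivascular smooth muscle-like cells at 1.79 (1.17 to 2.62). With the 4 libraries pooled, Cxcl1 was highest in pericyte-like cells at 124 (116 to 133) and endothelial-like cells at 82.0 (77.5 to 86.7). Without IR the genotypes differed in opposite directions in these classes, as given below, so this order need not hold in each library. Granulosa-like cells at 14.4 (14.0 to 14.8) held 56.5% of the 7898 Cxcl1 UMIs. Cxcl9 was barely detected, with 35 UMIs in 36524 cells, 19 of them in endothelial-like cells. Macrophage-like cells had 0 UMIs of Cxcl9, which allows a level of up to 1.64 UMI CPM, the level of 3 UMIs (the exact Poisson interval ends at 2.02).

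**Figure D4:**
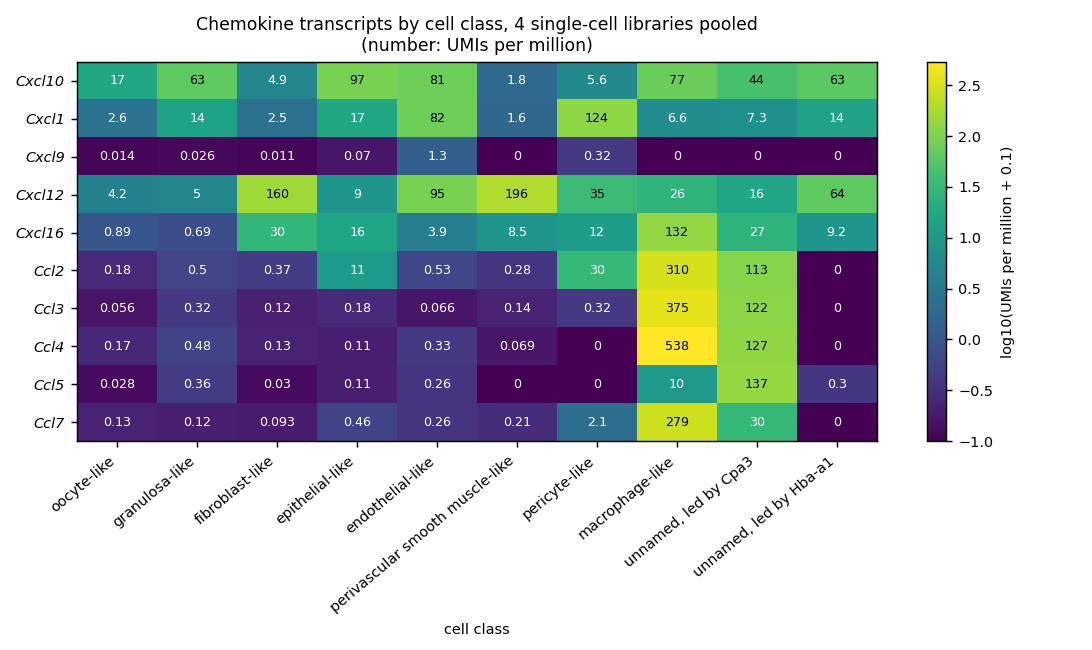
UMI CPM of each chemokine, from UMIs of the class summed over the 4 single-cell libraries, for 8 named classes and 2 unnamed clusters (log colour scale). Ccl2, Ccl3, Ccl4 and Ccl7 are highest in macrophage-like cells, Ccl5 in the cluster led by Cpa3, Cxcl12 in smooth muscle- and fibroblast-like cells, and Cxcl1 in pericyte-like cells.

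Between the single-cell libraries of different treatment Cxcl10 had the widest contrast of the 10 over all cells, with IR in wild-type ovaries. It was at 9.89 UMI CPM in the non-irradiated wild-type library, 81.1 in the irradiated wild-type, 25.3 in the non-irradiated Chek2-/- and 31.5 in the irradiated Chek2-/- library. The irradiated to non-irradiated ratio was 8.20 (7.81 to 8.61) in wild-type and 1.24 (1.19 to 1.29) in Chek2-/- cells. The high wild-type value appeared in several classes. In granulosa-like cells the wild-type levels were 16.0 and 139 (ratio 8.68, 8.17 to 9.23), in epithelial-like cells 11.9 and 228 (ratio 19.2, 15.3 to 24.4) and in oocyte-like cells 4.91 and 42.9 (ratio 8.73, 7.25 to 10.6). Macrophage-like cells were at 13.6 and 140, from 5 and 97 UMIs, but 64 of the 97 were in 1 cell. Endothelial-like cells, at 54.5 and 76.6 (ratio 1.40, 1.18 to 1.67), and fibroblast-like cells, at 2.99 and 7.70 (ratio 2.58, 2.18 to 3.05), differed less. Free RNA in the droplets can add UMIs to every class, and in perivascular smooth muscle-like cells, the lowest class, Cxcl10 was at 0.699 and 3.59 UMI CPM in the wild-type libraries from 3 and 13 UMIs. Its part in the oocyte-like values was not tested.

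Most Cxcl10 UMIs of granulosa-like cells were held by few cells, although a larger part of the class had at least 1 UMI. At least 1 was found in 757 of 3620 such cells in the irradiated and 192 of 2931 in the non-irradiated wild-type library. In the Chek2-/- libraries this was so for 407 of 3407 with and 362 of 3144 without IR. In the irradiated wild-type library, 198 of 3620 granulosa-like cells had at least 10 UMIs and held 89.9% of the Cxcl10 UMIs of the class, with up to 303 in 1 cell. In the non-irradiated wild-type library 36 of 2931 such cells had at least 10 UMIs and held 72.5%. Cluster 7 was at 37.3, 310, 119 and 215 UMI CPM in the non-irradiated and irradiated wild-type and the non-irradiated and irradiated Chek2-/- libraries. It made up 42.9% of the granulosa-like cells of the irradiated wild-type library, where it was the most numerous of the 4 clusters. In the other libraries it made up 23.6% to 35.3%, and cluster 5, at 40.2% to 46.7%, was the most numerous.

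These libraries gave no replicate check, and the bulk libraries were the only measure of spread between ovaries. For Cxcl10 the bulk groups overlapped, and the wild-type log2 fold change of -0.32 (95% interval -1.89 to 1.25) depended on non-irradiated replicate 5, without which it was 1.01. Bulk ovaries were put in RNA preservative on dissection, whereas those for single cells were digested with collagenase and trypsin, and the effect of this handling was not tested.

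The CC chemokines of macrophage-like cells had higher levels in both irradiated single-cell libraries. Ccl4 was at 120 UMI CPM in the non-irradiated and 856 in the irradiated wild-type library (ratio 7.13, 5.25 to 9.92), and at 175 and 832 in the Chek2-/- libraries (ratio 4.75, 3.68 to 6.19). Ccl3 was at 194 and 559 (ratio 2.88, 2.23 to 3.77) and at 114 and 547 (ratio 4.78, 3.48 to 6.66). For Ccl2 the ratios were 1.88 (1.46 to 2.46) and 2.16 (1.63 to 2.88), and for Ccl7 1.32 (1.05 to 1.66) and 3.89 (2.61 to 5.93). These values come from 31 and 54 wild-type and 30 and 23 Chek2-/- cells. In wild-type epithelial-like cells Ccl2 was at 0.750 without and 34.1 UMI CPM with IR, from 5 and 254 UMIs, and Cxcl16 at 8.70 and 33.8 (ratio 3.88, 2.91 to 5.26). In the Chek2-/- epithelial-like cells the corresponding ratios were 1.08 (0.624 to 1.86), where 23 of the 28 non-irradiated Ccl2 UMIs were in 1 cell, and 1.07 (0.764 to 1.49). In the bulk libraries neither Ccl2 nor Ccl4 was past the threshold after IR.

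**Figure D5:**
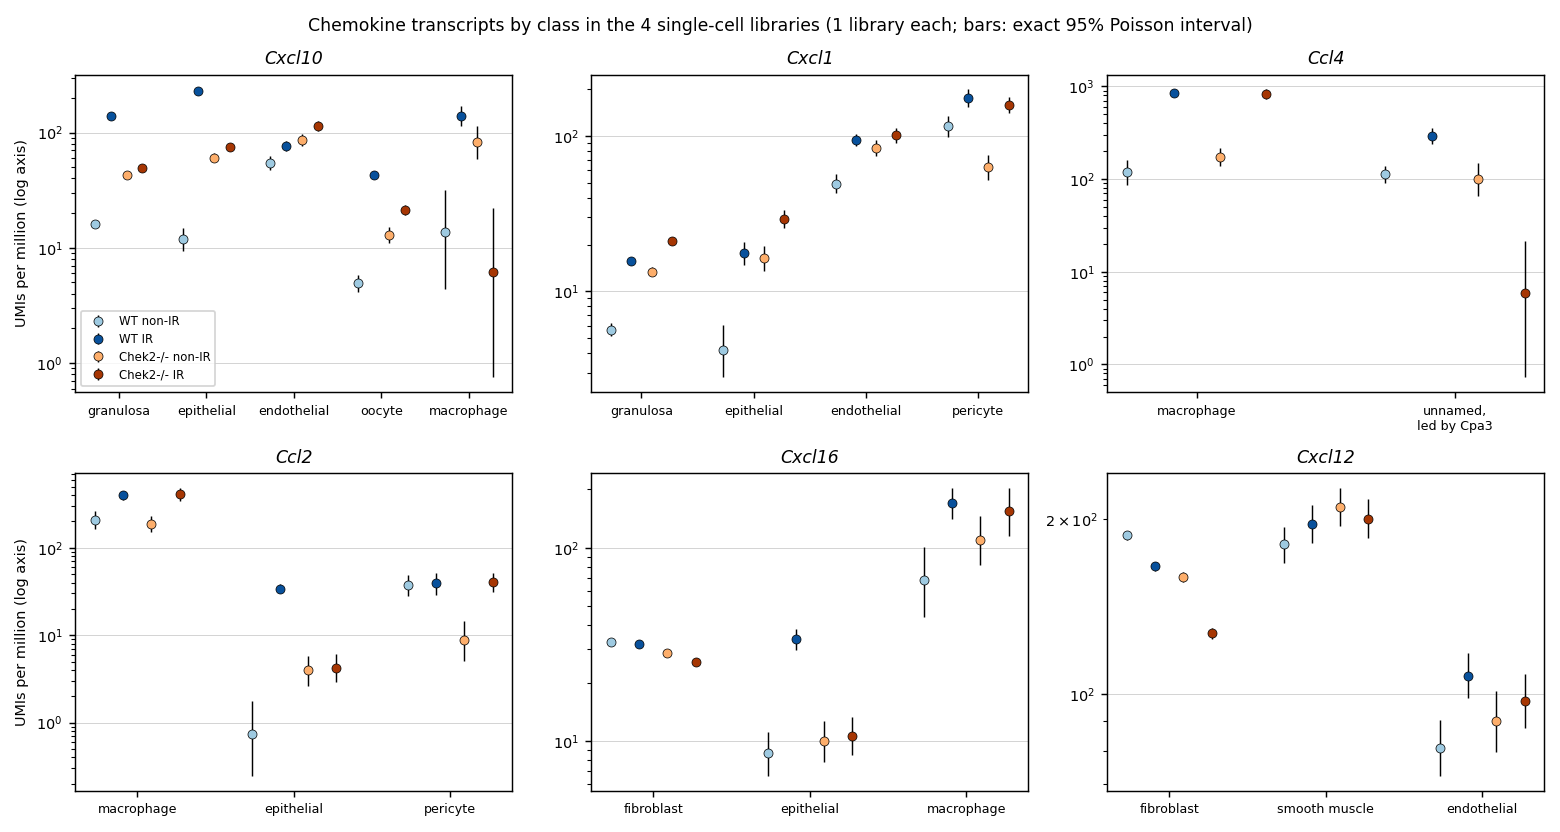
UMI CPM of selected chemokine and class pairs in each of the 4 single-cell libraries (log axis), with exact Poisson 95% intervals that cover counting error only and 1 library per condition. Cxcl10 in granulosa-like cells is at 16.0 in the non-irradiated and 139 in the irradiated wild-type library, and Ccl4 in macrophage-like cells is higher in both irradiated libraries.

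Cxcl1, the chemokine that differed between the genotypes in bulk, was at 5.24, 13.0, 9.57 and 15.7 UMI CPM over all cells of the non-irradiated and irradiated wild-type and the non-irradiated and irradiated Chek2-/- libraries. The Chek2-/- to wild-type ratio was 1.83 (1.69 to 1.98) without and 1.20 (1.14 to 1.27) with IR. It depended on the class. Without IR it was 2.37 (2.11 to 2.66) in granulosa-like, 3.88 (2.55 to 6.09) in epithelial-like and 1.70 (1.40 to 2.06) in endothelial-like cells, but 0.929 (0.708 to 1.22) in fibroblast-like and 0.544 (0.424 to 0.696) in pericyte-like cells. The granulosa-like clusters differed. In wild-type and Chek2-/- cells without IR, cluster 7 was at 11.2 and 37.7 and cluster 5 at 1.01 and 2.11 UMI CPM. Cluster 6 was at 9.73 and 9.70 and cluster 0 at 5.80 and 4.18. The irradiated to non-irradiated ratio over all cells was 2.48 (2.30 to 2.68) in wild-type and 1.64 (1.54 to 1.74) in Chek2-/- libraries, whereas the bulk log2 fold changes were -0.04 and -0.58. Cxcl12, in contrast, spanned a narrow range, at 188, 166, 159 and 127 UMI CPM in fibroblast-like cells in the same order.

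Several receptors were highest in the leukocyte clusters. In the cluster led by Cpa3 the level was 238 UMI CPM for Ccr2, the receptor of Ccl2 and Ccl7, 215 for Cxcr6, the receptor of Cxcl16, 50.2 for Cxcr3 and 23.0 for Cxcr2. Macrophage-like cells held Ccr1, a receptor of Ccl3 and Ccl5, at 142 and Cxcr3 at 7.66 UMI CPM. Cxcr4, the receptor of Cxcl12, was at 23.0 in macrophage-like, 17.2 in pericyte-like and 17.1 in endothelial-like cells. Ackr3, an atypical receptor that removes Cxcl12, was at 44.2 in endothelial-like and 43.3 in granulosa-like cells. In the bulk libraries none of the 16 receptors tested and none of the 5 atypical receptors was past the threshold after IR in either genotype. The same held in the interaction and between the genotypes without IR. Of all genes tested, 1.08% were past it after IR in wild-type and 0.00373% in Chek2-/- ovaries. The share was 0.623% in the interaction and 0.788% between the genotypes without IR.

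Other ligands and the regulators of chemokine transcription were counted in the same way. None of 12 other CXC, XC and CX3C ligands and 15 other CC ligands was past the threshold in these 4 bulk comparisons. Nor was any of 16 interferon and STAT regulators or 17 NF-kB regulators and inducers. Between 0.00373% and 1.08% of all genes tested were past it in these comparisons. Without the minimum fold, Ikbkb, the kinase that releases NF-kB by marking its inhibitor, fell after IR in wild-type ovaries. It measured 102 CPM without and 86.1 CPM with IR, which differ by -0.25 on the log2 scale (SE 0.04, adjusted p by edgeR 0.000276). The interaction was -0.30 (SE 0.06, adjusted p by edgeR 0.00433). Without the minimum fold 2.41% of all genes were called after IR in wild-type ovaries and 1.03% in the interaction. Rel, an NF-kB subunit, and Chuk, the partner kinase of Ikbkb, rose in Chek2-/- against wild-type ovaries without IR, by log2 fold changes of 0.47 (SE 0.12, adjusted p by edgeR 0.0216) and 0.31 (SE 0.06, adjusted p = 0.00554), in a comparison where 5.34% of all genes were called without the minimum fold. There 16 of the 17 NF-kB genes had a positive log2 fold change, with a median of 0.30, against 0.01 over all genes tested. In the further contrast of irradiated Chek2-/- against irradiated wild-type ovaries the ligands Ccl28 and Cxcl17 fell, both with overlapping groups. There 2.39% of all genes were past the threshold. Ccl28 was at 0.429 against 1.18 CPM (log2 fold change -1.47, SE 0.35, adjusted p by edgeR 0.00719). Cxcl17 was at 0.0059 against 0.15 CPM (adjusted p by edgeR 0.0473). That is near the floor, since 3 counts in a library equalled between 0.0931 and 0.168 CPM. Without the minimum fold, where 9.84% of genes were called, Ikbkb, Rel and Chuk rose there by 0.35 (adjusted p = 1.59e-06), 0.37 (adjusted p = 0.0441) and 0.24 (adjusted p = 0.0117) on the log2 scale, and all 17 NF-kB genes were positive with a median of 0.31, against 0.01 over all genes tested. Jak2, the kinase of the interferon gamma receptor, rose there by 0.23 on the log2 scale (adjusted p = 0.0143), while Socs1, an inhibitor of that signal, and the receptor chain gene Ifngr2 had log2 differences of -0.34 (adjusted p = 0.00697) and -0.16 (adjusted p = 0.0427).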

How the data were processed

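RNA from paired ovaries was sequenced in 24 bulk libraries, and dissociated cells of pooled ovaries in 4 droplet libraries. Per the labels, the authors trimmed bulk reads with Trim Galore 0.6.5 and deposited estimated counts per gene from Salmon 1.3.0 (GRCm38), unnormalised. The single-cell counts deposited by the authors are UMIs per gene and cell from Cell Ranger (mm10). Of 44674 identifiers, 522 had no symbol.

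Estimated counts were rounded and scaled by TMM. Genes with at least 10 counts over all libraries (26790) were fitted with 1 coefficient per group by edgeR 4.0.16 (R 4.3.3) quasi-likelihood, with Benjamini-Hochberg adjustment, and calls required a 2-fold change with adjusted p no higher than 0.05. Alternatives were DESeq2 1.42.0, limma-voom 3.58.1, other scaling and filters, a replicate block and each library left out. Added after the data had been seen were the contrast of irradiated genotypes and the joint removal of the libraries that stood apart. The fitting code was tested on simulated data. The genes named are the 10 members, Chek2, up to 5 listed ligands, receptors and regulators of each list per comparison with the smallest adjusted p of at most 0.05, and, for each member averaging at least 0.5 CPM, the 3 genes with the highest r over the libraries. Nnt and others placed by single-cell level were named after their values were seen.

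Cells with at least 1000 genes, at most 20% mitochondrial and 50% ribosomal UMIs were kept, and doublets removed with Scrublet. Counts scaled to 10000 per cell, 2000 variable genes, 30 components, 15 neighbours and Leiden resolution 0.5 (scanpy 1.11.5) gave the clusters, from which 741 genes (chemokines, their receptors and regulators, and genes changed by IR) were kept out. Members and gene lists were chosen with earlier results of these data known. The result for 1 listed gene is not reported here.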

Additional observations from a re-analysis of the deposited data

Results flagged for a closer look

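Single libraries stood apart from the other 5 of their group by Dixon's test at the 95% level in 12 of the 40 pairs of chemokine and group, a test that flags about 1 in 20 groups of independent, normally distributed values by chance. The chemokines varied together and were tested as untransformed CPM, so this rate is not the one chance gives for these pairs. Irradiated Chek2-/- replicate 6 gave 7 of them, with 125 CPM for Cxcl10, 25.3 for Cxcl1, 50.1 for Ccl2, 4.32 for Ccl3, 5.00 for Ccl4, 3.07 for Ccl5 and 14.9 for Ccl7. Non-irradiated Chek2-/- replicate 2 stood apart with 48.0 CPM for Cxcl1 and 3.69 CPM for Ccl3, and replicate 6 of that group with 61.4 CPM for Cxcl16. In wild-type ovaries, Cxcl10 stood apart at 44.5 CPM in non-irradiated replicate 5 and at 21.8 CPM in irradiated replicate 6.

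Over the 8 named classes and 2 unnamed clusters, the irradiated to non-irradiated ratio of the single-cell libraries lay on opposite sides of 1 in the genotypes, with 95% counting intervals that both left out 1, in 3 cases. In macrophage-like cells Cxcl10 had a ratio of 10.3 in wild-type and 0.0745 in Chek2-/- libraries, the latter from 2 and 37 UMIs, and 64 of the 97 UMIs of the irradiated wild-type library were in 1 cell. In the cluster led by Cpa3, Cxcl10 had ratios of 0.391 and 14.1, and Ccl4 of 2.62 and 0.0589. For Ccl4 there, 85 of the 101 UMIs of the irradiated wild-type and 22 of the 24 UMIs of the non-irradiated Chek2-/- library were in 1 cell each, and for Cxcl10 15 of the 20 UMIs of the irradiated Chek2-/- library were in 1 cell. With 1 library per condition the difference was not tested.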

How the results depend on the processing

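No member other than Cxcl1 reached an adjusted p of 0.05 in any of 1205 fits across the alternatives (lowest 0.0839), so each reversal below lies within a comparison that was not called, and its cause was not tested. Over all results and alternatives, 1412 values kept their direction and side of the threshold or moved little, 92 reversed, 9 moved and 1 lost its call.

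The labels do not say that same-numbered libraries share an animal or batch, and the numbers were not used as pairs. Of 36 correlations of their deviations, 16 were over 0.1 (range -0.19 to 0.66). Between the non-irradiated and irradiated libraries of a genotype they ran from -0.05 to 0.40 in wild-type and from 0.06 to 0.66 in Chek2-/- ovaries. As a hint from the data, 12 of 24 libraries correlated best with their own number, and what they share was not tested. With the replicate block, Cxcl1 between the non-irradiated genotypes was at 1.86 (edgeR adjusted p = 0.00185). Under the block the log2 fold change after IR in wild-type ovaries was 0.13 for Cxcl10, -0.0029 for Cxcl12 and 0.19 for Ccl4, in Chek2-/- ovaries -0.19 for Ccl7, in the interaction 0.0083 for Ccl2 and 0.0027 for Ccl5, and between the non-irradiated genotypes 0.14 for Ccl4 and 0.17 for Ccl7.

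With limma-voom, reversed values were 0.39 for Cxcl10, 0.0046 for Cxcl1 and 0.49 for Ccl4 after IR in wild-type ovaries, -0.065 for Ccl7 in Chek2-/- ovaries, 0.29 for Cxcl10, 0.078 for Ccl2, 0.38 for Ccl4 and 0.054 for Ccl5 in the interaction, and -0.11 for Ccl3 and 0.33 for Ccl4 between the non-irradiated genotypes. Without both Chek2-/- libraries numbered 6, they were -0.29 for Cxcl10, -0.49 for Ccl3, -0.00074 for Ccl4 and -0.70 for Ccl7 after IR in Chek2-/- ovaries, and 0.27 for Ccl2, 0.63 for Ccl5 and 0.32 for Ccl7 in the interaction. Without the 2 libraries holding neutrophil transcripts, they were 0.0054 for Cxcl1 and -0.032 for Cxcl12 in wild-type ovaries, 0.024 for Ccl2 in Chek2-/- ovaries and -0.19 for Ccl3 in the interaction.

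Leaving out 1 library at a time, log2 fold changes after IR in wild-type ovaries ran from -0.80 to 1.01 for Cxcl10, -0.22 to 0.18 for Cxcl1, -0.033 to 0.064 for Cxcl12, -0.059 to 0.040 for Cxcl16, -0.41 to 0.29 for Ccl4 and -0.78 to 0.15 for Ccl7. In Chek2-/- ovaries they ran from -0.36 to 1.19 for Cxcl10, -0.17 to 0.31 for Cxcl16, -0.97 to 0.29 for Ccl2, -0.48 to 0.81 for Ccl3, -0.29 to 1.30 for Ccl4, -0.22 to 1.16 for Ccl5 and -0.82 to 0.64 for Ccl7. The interaction ran from -1.77 to 0.064 for Cxcl10, -0.16 to 0.55 for Cxcl9, -0.32 to 0.17 for Cxcl16, -0.86 to 0.42 for Ccl2, -0.61 to 0.69 for Ccl3, -1.48 to 0.12 for Ccl4, -0.68 to 0.86 for Ccl5 and -1.03 to 0.44 for Ccl7. Between the non-irradiated genotypes the range was -0.053 to 0.74 for Ccl2, -0.37 to 0.44 for Ccl3, -0.45 to 0.30 for Ccl4 and -0.61 to 0.38 for Ccl7. For Cxcl1 it was 1.42 to 2.17 without IR and 1.07 to 1.60 with IR, and for Cxcl10 with IR 0.45 to 2.27.

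In the single-cell data, the level of Cxcl10 in epithelial-like cells was 124 UMI CPM with doublets kept, 118 at Leiden resolution 1.0 and 136 with at most 10% mitochondrial UMIs. Cxcl12 in perivascular smooth muscle-like cells was at 208, 221 and 187 in the same order, Cxcl1 in pericyte-like cells at 103 with doublets kept, and Ccl3 and Ccl7 in macrophage-like cells at 341 and 247 with the stricter mitochondrial limit. Low counts limit what Cxcl9, Ccl4 and Ccl5 can show in bulk, and 1 library per condition limits every single-cell contrast.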

Other observations

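Further ligands outside the 10 were also placed by the single-cell libraries, given here as levels over all 4 libraries with no test. Macrophage-like cells held Pf4, a platelet and macrophage chemokine, at 3490 UMI CPM and the neutrophil attractant Cxcl2 at 406 UMI CPM. The level there of Ccl12, another monocyte attractant, was 312 UMI CPM. Their fractalkine receptor gene Cx3cr1 was at 921. Endothelial-like cells held Ccl21a, a ligand of Ccr7 that guides lymphocytes and dendritic cells, at 422 UMI CPM. Pericyte-like cells held the eosinophil attractant Ccl11 at 92.0, and perivascular smooth muscle-like cells Cxcl14 at 33.3. Oocyte-like cells held Ccl27a at 41.1 and Ccl25 at 20.4, and granulosa-like cells Cx3cl1, which encodes fractalkine, at 17.9. The cluster led by Cpa3 held the cytokine genes Il1b at 758 and Tnf at 100, the lymphocyte chemokine gene Xcl1 at 44.2 and its receptor gene Xcr1 at 38.7.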
